A study of Oncorhynchus mykiss with 12 samples.

Results

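The probes described here are those whose level in the head kidney of juvenile rainbow trout moved to the same side of control in fish fed T3 and in fish fed PTU. They were chosen from these data. A probe was eligible if the scanner software marked it well above background on all 12 arrays and if it was not among the 100 brightest by control mean, which left 9772 of 12884 trout probes. Its level is the log2 intensity minus the 75th percentile of its array. Of the eligible probes, 725 (7.42%) had T3 and PTU means on the same side of the control mean, both at least 0.75 away on the log2 scale. The 100 with the largest smaller difference are the members, 47 higher and 53 lower under both feeds. Since both differences were used to choose them, these differences are given as a description, without a test.

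T3 (triiodothyronine) is the active thyroid hormone, which acts through nuclear receptors that switch target genes on or off. PTU (propylthiouracil) blocks the thyroid peroxidase that makes thyroid hormone, so these agents are used to raise and to lower thyroid status. The head kidney of bony fish makes blood cells and holds lymphoid cells, and it also contains the steroid-producing interrenal cells and the chromaffin cells.

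Each array read Cy3-labelled cDNA from 1 pool of 2 fish. The control fish received no agent, the T3 fish 20 µg per g of feed and the PTU fish 5000 µg per g of feed, in each case for 7 days and with 4 pools. The fish weighed 50 g and were kept in 6 aquaria of 200 L at 15 °C. Which aquarium each pool came from is not given in the sources used here, so pools of a group can share one. No gene is given for a probe ID in the files, and 0 IDs matched the trout gene table used here, so probes are named by ID and the labelled tissue was not checked against its marker genes.

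Slide 1 held the control and T3 arrays and slide 2 the PTU arrays, so PTU and slide cannot be told apart. On slide 1 all control arrays lay in row 1 and all T3 arrays in row 2, so T3 and row cannot be told apart either. The share of trout probes well above background ran from 79.1% to 99.56% between arrays. In control replicate 2, T3 replicate 1 and PTU replicate 3 this share was highest, and dim probes were raised there. In bulk tissue, fewer cells of a type and less RNA per cell cannot be told apart.

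The members' differences ran from 1.29 to 3.34 for T3 and from 1.31 to 4.00 for PTU among the higher ones, with medians of 1.47 and 1.69. Among the lower ones they ran from -3.63 to -1.29 for T3 and from -3.59 to -1.29 for PTU, with medians of -1.87 and -1.76. Over all eligible probes the medians were 0.11 and 0.02. Just inside the limit lay JC007695 and JC001479 among the higher probes, with smaller differences of 1.285 and 1.302. JC012883 and JC007635 lay just outside, at 1.281 and 1.28. Among the lower probes JC002252 (1.287) and JC001451 (1.286) lay inside, and JC003545 (1.281) and JC010999 (1.27) outside. No gap in the values sets the 100 apart from the rest of the 725.

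How many probes met the rule on each side depended on the scaling and on single control arrays. As reported, 476 of the 725 (65.7%) were higher, which is 4.87% of the eligible probes, and 249 were lower, which is 2.55%. The share higher was 43.7% after quantile normalization, 28.2% after median scaling, 74.3% with the percentile taken only over probes above background throughout, and 11.4% after normexp background correction. Without control replicate 2 the lower probes numbered 108 and the share higher was 86.6%. Without control replicate 4 they numbered 532 and the share higher was 50.5%. Median scaling moved the median difference of all eligible probes to -0.13 for T3 and -0.09 for PTU, and normexp moved it to -0.23 and -0.36. All 100 members stayed past 0.75 on their side under quantile normalization, median scaling, the other percentile and the deposited value table. Apart from quantile normalization, these settings shift all probes of an array nearly alike and by little. Members start at 1.285 or more, so they could not fall under 0.75 there, and nothing is read from that count. After normexp 52 of the 53 lower members did so, and 18 of the 47 higher ones. Normexp added an offset of 50 to each intensity, which narrows log2 differences of dim probes, and the higher members were mostly dim. The part of this offset in the normexp results was not tested.

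The members were not separate measurements of 100 transcripts. The probe numbers run from JC000001 to JC012884, and probes whose numbers differ by 6442 gave nearly the same level. Over the 6442 such number pairs the median difference between the mean levels was 0.0557 (log2), against 2.58 for numbers 6441 apart and 2.57 for numbers 6443 apart. On a given array the spots of a number pair differed by a median of 0.0928. The sources used here do not say whether the partner spots carry the same sequence. They are read here as repeat spots on the same RNA, not as replicates of a feed. The 100 members came from 62 number pairs, 28 higher and 34 lower. In 38 number pairs both spots were members. In another 14 the partner also met the rule with a smaller difference, and in 3 it was not eligible. In the remaining 7, all lower, the partner did not meet the rule.

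Those 7 lower members, JC009986, JC001784, JC001177, JC004654, JC011514, JC005197 and JC001451, each owed their place to 1 spot on 1 control array. JC009986 lay at -0.37, -0.84, -0.58 and 7.91 on control replicates 1 to 4. It lay at -0.84, -1.37, -0.23 and -0.23 on the T3 arrays and at -0.75, -1.99, -0.57 and -0.78 on the PTU arrays. Its partner JC003544 lay at -0.65 on control replicate 4, beside its -0.44, -0.93 and -0.65 on control replicates 1 to 3. The spot of JC009986 on control replicate 4 thus stood 8.57 log2 units above its partner, and on the other 11 arrays the 2 spots differed by at most 0.13.

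JC001784, JC001177 and JC004654 were high on the same array, control replicate 4, by 10.02, 10.08 and 9.0 log2 units over their partners. JC011514, JC005197 and JC001451 were high on control replicate 2, by 9.58, 7.29 and 5.78. These 6 spots, but not that of JC009986, carried the scanner software's outlier mark. Without the array concerned, the T3 and PTU differences of the 7 probes lay between -0.43 and 0.55. Those of their partners lay between -0.31 and 0.41, so the partner spots show no shift of the size the rule asks for. Some of these spots lay near each other. JC011514 and JC005197 sat in column 71, rows 84 and 82, of the array grid, and JC001177 and JC004654 sat in column 63, rows 41 and 43.

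JC006843 had the largest smaller difference of the lower members, 3.59, and a spot of the same kind. It lay at 9.57 on control replicate 1, with an intensity of 747000, where its partner JC000401 lay at 2.41. This was the 1 saturated trout spot of the series. Here the partner was a member as well, with differences of -1.83 for T3 and -1.76 for PTU. Without control replicate 1, JC006843 itself gave -1.81 and -1.78, close to its partner.

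Within the groups the members were widely spread. The SD within groups had a median of 1.37 on the log2 scale over the members and of 0.557 over all eligible probes, and all 100 members lay above that second value. A choice by large differences of means favours such probes. For 0 of the 100 members did all 8 treated arrays lie beyond the control range. Among the eligible probes 42 (0.43%) had all treated arrays above every control array and 53 (0.542%) below. Their smaller differences reached at most 1.12, under the 1.285 needed to be among the 100. All 4 T3 arrays lay above every control array for 12 of the 47 higher members (1.55% of eligible probes) and all 4 PTU arrays for 1 (3.14%). Of the 53 lower members, 0 had all T3 arrays below the controls (2.52%) and 1 had all PTU arrays below (3.62%). The rule used these contrasts, so nothing is read from these counts.

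The range of the 4 single control pools had a median of 3.78 over the lower members and of 1.84 over the higher ones. In size both exceeded the median differences of the group means, -1.87 and -1.76 for the lower and 1.47 and 1.69 for the higher members. A range of single pools is not the same measure as a difference of means of 4 pools. The lower members had a median of 1.51 above their own control mean on control replicate 2 and of 0.76 above it on control replicate 3. On control replicate 1 they lay 0.35 below it (a median of -0.35), and on control replicate 4 at -1.85. The T3 arrays lay at -1.88, -0.98, -1.61 and -2.58 and the PTU arrays at -2.48, -1.75, -1.47 and -1.19. Control replicate 4 therefore lay among the treated arrays, and control replicates 2 and 3 alone lay above the control mean. Control replicate 2 was the highest control array for 43 of the 53 lower members, and control replicate 4 the lowest for 42. These are counts of spots, from 34 number pairs, and the 43 include the single bright spots of JC011514, JC005197 and JC001451. The share over all eligible probes is not given here and the rule used the control means, so nothing is read from these counts.

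The higher members were more even over the controls, with medians of -0.45, 0.40, 0.03 and -0.20 on control replicates 1 to 4. The T3 arrays lay at 1.39, 1.66, 1.73 and 1.57. The PTU arrays lay at 2.02, 0.70, 2.39 and 0.96, so PTU replicates 2 and 4 stood nearer to control than any T3 array. Over all eligible probes the medians of the 12 arrays lay between -0.16 and 0.17. The higher members were mostly dim, with a median control level of -3.90 against -1.50 over all eligible probes, and 29 of the 47 were in the dimmest 25%. The lower members had a median control level of 1.18, and 0 of the 53 were in the dimmest 25%. The control level enters both differences of the rule, and eligible probes had to be well above background on all 12 arrays. How far the choice itself sets this contrast in brightness was not tested.

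The means of the 62 number pairs were sorted by the shape of their levels over the 12 arrays, by average linkage on 1 minus Pearson r and a limit of 0.4. This gave 14 pattern groups, of which 8 held at least 3 number pairs and 55 number pairs in all. Pattern groups 6 and 7, of 4 and 3 number pairs, consist of the 7 lower members that each rest on 1 control spot. What joins them is the array of that spot, control replicate 4 in group 6 and control replicate 2 in group 7. Without outlier spots 1 of the 4 and 0 of the 3 pair means met the rule. The grouping was made after the levels were seen and is a description of these arrays. Each group is named by its leading probes, since no gene names are at hand.

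The largest pattern group held 21 number pairs, all lower, with 37 member probes. In all 21, control replicate 4 was the lowest control array, in 19 control replicate 2 was the highest, and in 19 PTU replicate 1 was the lowest PTU array. T3 replicate 2 was the highest T3 array in 17 and T3 replicate 4 the lowest in 16. PTU replicate 4 was the highest PTU array in 12. The grouping by correlation brings such shared orders with it, so these counts describe the group and support nothing. The control levels of the 21 pairs ran from -2.68 to 3.3.

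JC009722 shows this pattern. It lay at 1.68, 3.62, 2.81 and 0.08 on the control arrays, at 0.01, 0.95, 0.02 and -1.68 on the T3 arrays and at -1.05, 0.29, -0.29 and 0.55 on the PTU arrays. Control replicates 1 to 3 were above all 8 treated arrays, and control replicate 4 was not. Its mean was 2.05 ± 1.54 (SD, n = 4) in control, -0.18 ± 1.10 in T3 and -0.13 ± 0.708 in PTU. JC012563 lay at 1.41, 3.25, 2.74 and -0.44 in control, -0.50, 0.73, 0.35 and -2.31 in T3, and -1.61, -0.64, 0.26 and 0.82 in PTU. Here too the first 3 control pools were highest and the control replicate 4 value fell inside the treated range.

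JC012884 had the same order as JC012563 within each group, with a wider range. It differed in order from JC009722 only over the PTU arrays. Its control levels were 2.90, 5.95, 4.48 and -0.45, its T3 levels -0.09, 2.77, 2.06 and -1.55, and its PTU levels -0.88, 1.47, 1.66 and 2.08. Control replicates 1 to 3 were again above every treated array, replicate 1 by little, and control replicate 4 was not. Its partner JC006442 lay within 0.41 of it on every array. JC011440 lay at 1.29, 3.34, 1.73 and -1.38 in control, -1.22, 0.76, -0.63 and -2.05 in T3, and -2.17, -1.73, -0.38 and -0.07 in PTU. All 21 pair means still met the rule without the 3 arrays with raised dim probes, with medians of -1.18 for T3 and -1.26 for PTU in place of -1.90 and -1.67. They also all met it after normexp, with -1.68 and -1.64.

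Pattern group 2 held 7 number pairs, all higher and dim, with control levels between -3.98 and -3.81. JC001479 lay at -5.05, -2.99, -2.57 and -5.01 in control, -2.61, -1.77, -4.50 and -1.52 in T3, and -1.19, -1.85, -1.75 and -3.57 in PTU. T3 replicates 1 and 3 and PTU replicate 4 lay inside the control range, and the other treated arrays above it. T3 replicate 3 was the lowest T3 array in all 7 pairs. For 5 of them, led by JC001136, JC001190, JC001253, JC001379 and JC001479, the pair means differed by at most 0.50 on any array. Whether these 5 read separate transcripts is not given in the sources used here. The pair of JC001469 and JC007911 followed them closely except on PTU replicate 2. On that array JC007911 lay at -0.27, with an outlier mark, and JC001469 at -1.89. After normexp 0 of the 7 met the rule, with medians of -0.02 for T3 and 0.18 for PTU.

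In another pattern group of 7 higher number pairs the control medians lay between -0.35 and 0.37, and the medians were highest on T3 replicates 2 and 3 and PTU replicates 3 and 4. T3 replicate 2 was the highest T3 array in 5 of the 7. The pair of JC003480 and JC009922 differed, with means of -3.17, -3.52, -2.77 and -0.93 on the T3 arrays, where replicate 2 was lowest and replicate 4 highest. JC009613 lay at -2.77, -3.26, -1.42 and -1.80 in control, -1.17, 1.81, 1.36 and -0.89 in T3, and -0.86, -2.57, 2.20 and 1.30 in PTU. All 4 T3 arrays were above the controls, and PTU replicate 2 was inside their range. Its partner JC003171 had means of -2.30 ± 0.623 (SD, n = 4) in control, 0.12 ± 1.63 in T3 and -0.03 ± 2.18 in PTU. JC008300, dimmer, lay at -5.92, -5.40, -4.53 and -6.45 in control, -3.93, -0.57, -1.56 and -4.44 in T3, and -3.18, -5.05, -0.09 and -1.21 in PTU. The same arrays were highest, and PTU replicate 2 again fell inside the control range.

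JC001858, the partner of JC008300, differed by 2.70 for T3 and 2.84 for PTU. JC001987 differed by 1.97 and 2.10 and JC003523 by 2.32 and 1.89. PTU replicate 2 was the lowest PTU array in all 7 pairs of this group. Without the 3 arrays with raised dim probes all 7 met the rule, with medians of 2.27 for T3 and 1.30 for PTU in place of 1.93 and 1.99. After normexp 1 of the 7 did.

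The largest differences among the higher members came from a pattern group of 6 number pairs, in which PTU replicate 3 was the highest PTU array in all 6 and T3 replicate 1 the highest T3 array in 4. Both are arrays with raised dim probes. JC012362 lay at -4.60, -2.20, -4.65 and -4.36 in control, 3.15, -3.62, -0.04 and -1.94 in T3, and -1.79, -3.19, 3.98 and -1.03 in PTU. JC012357 lay at -2.98, -3.02, -4.56 and -4.01 in control, 4.56, -3.78, -0.21 and -1.78 in T3, and -1.83, -4.94, 7.43 and 0.78 in PTU. In each, 1 T3 array and 1 PTU array stayed inside or below the control range, while 1 array of each feed was at least 3 log2 units above the next. Without control replicate 2, T3 replicate 1 and PTU replicate 3, 3 of the 6 pair means met the rule, with medians of 1.77 and 1.51 in place of 1.94 and 2.17. After normexp 2 of the 6 did, with medians of 0.42 and 0.32. The part of the raised dim probes in this group was not tested.

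In a pattern group of 4 higher number pairs the medians of the T3 arrays lay between 1.04 and 1.66 above control and those of the PTU arrays between 0.75 and 2.03. The pair mean of JC000415 lay at -0.75, -2.95, -2.23 and -1.44 in control, -0.86, -0.41, -0.13 and -0.32 in T3, and 0.19, 0.05, 0.26 and -0.96 in PTU. Control replicate 1 was the only control array inside the treated range. The pairs led by JC000415, JC006428 and JC006438 differed by at most 0.26 on any array. All 4 pairs met the rule without the 3 arrays with raised dim probes (medians 1.17 and 1.18) and after normexp (0.78 and 1.03). The 2 number pairs of a further group, led by JC001411 and JC001774, also met it under both, with medians of 1.45 for T3 and 1.33 for PTU as reported.

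A pattern group of 3 lower number pairs held 2 whose levels fell into a high and a low range that cut across the groups. JC001979 lay at 2.11, -2.09, 2.29 and 1.85 in control, -3.62, 2.11, 2.21 and -5.86 in T3, and -6.89, -7.00, 2.04 and 3.21 in PTU. Control replicate 2, T3 replicates 1 and 4 and PTU replicates 1 and 2 were low, and the other 7 arrays lay between 1.85 and 3.21. JC008503 was low on the same 5 arrays, between -7.41 and -2.77, and lay between -0.05 and 1.51 on the others. JC011826 followed this split in part. It was lowest on T3 replicate 4 and PTU replicates 1 and 2, which were low in those probes too, but not on control replicate 2 or T3 replicate 1. It lay at -0.73, -0.05, 0.03 and -0.98 in control, -1.27, -1.34, -0.73 and -4.26 in T3, and -4.3, -4.21, -1.92 and -2.46 in PTU. All 4 PTU arrays were below every control array, and T3 replicate 3 was inside the control range. The partners of JC001979 and JC008503 were not eligible. The group means of such probes reflect how many of the 4 pools were low, 1 in control and 2 under each feed for JC001979. They also reflect how low each pool was. JC001979 was less low on control replicate 2 (-2.09) and T3 replicate 1 (-3.62), both arrays with raised dim probes, than on the other low arrays (-7.00 to -5.86). The part of the raised dim probes in these means was not tested.

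JC001938 had a similar split on other pools. It lay between 3.85 and 6.84 on 10 arrays, at -0.03 on T3 replicate 2 and at -2.86 on PTU replicate 3, and its partner JC008380 followed it at 0.02 and -2.82. Without either of these arrays it no longer met the rule.

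The direct difference between the feeds, T3 minus PTU, is the difference of the 2 contrasts that chose the members. The rule sets no upper limit on it, but it rests on the same T3 and PTU means as the choice. That choice also favours probes with a wide spread, so the difference is given as a description. limma, fitted to the 11762 tested probes with all 12 arrays, gave 0 of the 100 members at an adjusted p under 0.05 and 0 at an unadjusted p under 0.05. Over all tested probes 0 (0%) passed the adjusted threshold and 810 (6.89%) had an unadjusted p under 0.05. Nothing is read from the members' counts, since the rule used the same T3 and PTU means. T3 was above PTU for 32 of the 100 members, which came from 62 number pairs, and for 4997 of the 9772 eligible probes. The median difference was -0.12 over the members and 0.01 over all eligible probes.

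JC011826 had T3 above PTU by 1.32 (SE 0.768, 95% interval -0.36 to 3.01), and JC012874 had a difference of -1.30 (SE 1.01, interval -3.50 to 0.90). JC004654 stood at 0.78, with an interval from -0.00 to 1.57, and its place among the members rests on the spot described above. For JC001177, JC002252 and JC003673 the differences were 0.32, -0.72 and -0.56. These values do not show that the members stand at equal levels under the feeds. The median SE was 0.815 on the log2 scale, against 0.394 over all eligible probes. The 95% interval stayed within 2-fold on both sides of 0 for 2 of the 100 members, against 31.4% of the eligible probes. These were JC005197 and JC001451, both among the 7 members that rest on a single control spot. That spot carried the outlier mark and was left out of the fit, which gave SEs of 0.313 and 0.308. The bright spot of JC009986 carried no mark and stayed in the fit, where its SE was 1.58. For JC012357 the interval ran from -5.74 to 4.41, and for JC009722 from -1.70 to 1.59.

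Against control, limma called 0 of the 11762 probes for T3 (0%) and 0 for PTU (0%) after adjustment, while 632 (5.37%) and 1234 (10.5%) had an unadjusted p below 0.05. The rule used these contrasts, so no such p is given for a member. When each array was left out in turn, 75 of the 100 members stayed past 0.75 on their side in all 12 cases, 38 of the 47 higher and 37 of the 53 lower. The most were lost without PTU replicate 3 (6) and without control replicate 2 or PTU replicate 1 (5 each). Since the members start at 1.285 or more, this count says how far single arrays carry them, and not whether the shift would recur in other fish.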

How the data were processed

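Cy3-labelled cDNA made from total RNA of 12 head kidney pools was hybridised in 1 colour to an array with 12884 trout probes and 536 control spots. Per the file headers, Agilent Feature Extraction 10.7.3.1 read the scans. The processed signal deposited by the authors is a background-corrected intensity, not scaled between arrays. The deposited value table holds each probe's fraction of its array's summed processed signal, unlogged and uncentred, as setting each column against that array's signals showed (column sums 0.99994 to 1.00009, medians 2.9e-06 to 8.1e-06). 0 columns were of other samples.

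Levels were log2 processed signals minus the array's 75th percentile. The marks for well above background, outlier and saturated spots are the scanner software's 0 or 1 flags. The rule for members used all spots. For the tests, limma 3.58.1 in R 4.3.3 was fitted to the 3 groups together, without outlier spots, over 11762 probes well above background on at least 3 arrays of a group, with Benjamini-Hochberg adjustment over all of them. The fit and the rule were tested on simulated data. Per the labels each pool holds its own 2 fish, and 4 pools a group limit the precision. P-values rest on the spread of pools, since aquaria are unknown. Normexp was run on the median spot and background signals, with an offset of 50.

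The members, named probes and alternatives were chosen with earlier results of these data known. Named are the 10 members on each side with the largest smaller difference, 2 on each side just inside and outside the limit, and 3 on each side with the smallest p between T3 and PTU. Other probes named, the number pairs, the pattern groups and the limit of 2 on gaps between spots were chosen after the values were seen. Gene lists and cell type markers listed beforehand were not used here, since probes carry no gene names. Replicate numbers pair nothing in the labels.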

Additional observations from a re-analysis of the deposited data

Results flagged for a closer look

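The 32 named probes and the medians of the higher and lower members were examined in each group of 4 arrays for an array standing far from the nearest other one, relative to the full range of the 4. This held in 8 of 102 cases. The mark is set so that chance gives about 1 in 20, but that rate does not apply here. The named probes were chosen from these values and some are partner spots, so nothing is read from the count.

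In 4 cases a control spot stood apart from its own partner spot as well. JC009986 lay at 7.91 on control replicate 4 against -0.84 to -0.37 on the other controls, JC001177 at 6.35 against -3.90 to -2.81, and JC004654 at 5.91 against -3.39 to -2.92. JC001451 lay at 3.86 on control replicate 2 against -3.11 to -2.16. The partner spots on the same arrays were at -0.65, -3.73, -3.09 and -1.92.

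In 3 cases control replicate 2, 1 of the 3 arrays with raised dim probes, stood apart and the partner spot followed. JC012362 lay at -2.20 there against -4.65 to -4.36 on the other controls, and its partner JC005920 at -2.21 against -4.32 to -4.05. JC001979 lay at -2.09 against 1.85 to 2.29. The part of the raised dim probes in these cases was not tested. The last case was JC009986 on PTU replicate 2, at -1.99 against -0.78 to -0.57 on the other PTU arrays, where its partner was at -1.87.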

How the results depend on the processing

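The mean of both spots of a number pair was an alternative chosen after seeing the data. The number of probes meeting the rule was 1598 at a limit of 0.5 (977 higher, 621 lower) and 261 at 1 (130 higher, 131 lower). The number higher was 268 after quantile normalization, 177 after median scaling and 115 after normexp. The number lower was 451 after median scaling, 892 after normexp and 131 without the 3 arrays with raised dim probes. With 1 array left out the lowest count was 108, on omitting control replicate 2, and the highest 532, on omitting control replicate 4, against 249 as reported. It was 404 on omitting control replicate 1. Of the 100 members, 94 stayed past the limit without outlier spots, 87 without the 3 arrays, 98 as means of number pairs and 94 to 100 with 1 array left out. For the count of 98 the pair means used all spots and so still contained a single bright control spot. Of the members resting on such a spot only JC001451 and JC004654 were lost. The pair mean of JC009986 gave -1.09 for T3 and -1.43 for PTU, where its partner alone gave 0.01 and -0.31. Between T3 and PTU the counts of members rest on the means that the rule used, and nothing is read from them. At an unadjusted p under 0.05 there was 1 with the filter of all 12 arrays, 1 of 62 number pairs with pair means, and 0 to 1 with 1 array left out. In the pair means fitted by limma, unlike those above, an outlier-marked spot was left out and its partner used alone. With the replicate block it was 0, and the correlation of deviations for arrays sharing a number was -0.344 to 0.416, above 0.1 in 4 of 12 cases, with the best match sharing its number in 4 of 24. Over all probes 0 were called for T3 against control in all settings. For PTU against control quantile normalization called 7, array quality weights 5, omission of the 3 arrays 3 and omission of 1 array 0 to 4. The cause was not tested. After normexp some higher probes changed sign, for T3 JC003523 (-0.05), JC001479, JC007695 and JC012883 (-0.09 each), JC007635 (-0.06) and JC012874 (-0.17), and for PTU JC001987 (-0.01) and JC003523 (-0.46). All but JC003523 for PTU lay above the median of all eligible probes (-0.23 and -0.36). Without outlier spots or the control array concerned, JC001177 gave 0.25 and JC004654 0.55 for T3, JC001784 0.07 for PTU, and JC001451 0.33 and 0.31. At the other end, omitting 1 array gave -3.16, -2.55, -3.25, -1.99 and -2.02 for these 5 differences. Without the 3 arrays JC001451 gave 0.44 and 0.49.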
